A study of Mus musculus with 24 samples.

Results

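The genes described here are 10 members of the fibroblast growth factor (FGF) pathway: the ligands Fgf8, Fgf17 and Fgf15, the receptors Fgfr1, Fgfr2 and Fgfr3, and the feedback targets Spry1, Spry2, Spry4 and Dusp6. They were chosen by name from the 23119 genes of the deposited table, with earlier results of these data known. Counts of members set beside shares of all genes therefore describe a chosen set. Each member matched 1 entry that it shared with no other symbol. All 10 passed the filter for testing, a 24-library mean of 1 FPKM or more. FPKM is a level per length of transcript (fragments per kilobase, scaled to the fragments mapped), so levels of different genes can be set side by side. RNA was taken from the female mESC line JB4/EI7HZ2, whose parents were JF1 and B6 mice, and from a SmcHD1-knockout (KO) line made from it with CRISPR–Cas9. SmcHD1 is a chromatin protein that helps to keep genes silent on the inactive X chromosome, and all 10 members are autosomal. Both were sampled as mESCs, as day 7 and day 9 cells of a neurectoderm differentiation in aggregates, and as neural stem cells (NSCs), which were derived from mESCs by a separate protocol and not from the day 9 cells. Each of the 8 groups had 3 libraries. All cells carried drug resistance genes on their X chromosomes, and the mESC medium, for both genotypes, held G418, zeocin, LIF, a GSK3 inhibitor and PD0325901, which inhibits MEK, the kinase directly above ERK. The differentiation towards day 7 and day 9 began with exposure to Activin A and FGF2. NSCs were kept in FGF2 and EGF, and the media used to derive and keep them also held G418 and zeocin. WT and KO are each a single line, so genotype and line cannot be told apart. The study describes the replicates of JB4/EI7HZ2 mESCs and the cells derived from them as biologically independent, while the labels only number them. The p-values measure the spread between these libraries.

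FGF ligands bind receptor tyrosine kinases together with heparan sulphate on the cell surface. The receptor then signals through the adaptor Frs2, Grb2 and the Ras-Raf-MEK-ERK relay, and ERK activity turns on genes that damp the same relay, among them the Sprouty genes (Spry1, Spry2 and Spry4) and Dusp6, a phosphatase of ERK. In the early embryo FGF signalling takes pluripotent cells out of self-renewal and acts in the primitive streak, where Fgf8 is expressed. Later, Fgf8 and Fgf17 are made by the organizer at the midbrain-hindbrain boundary, Fgf15 is expressed in the neural tube, Fgfr1 to Fgfr3 are expressed in neural progenitors, and FGF2 keeps cultured NSCs dividing.

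Per the deposited table (mm9), the ligands lie at chr19:45811288-45817374 (Fgf8), chr14:71036012-71042075 (Fgf17) and chr7:152082437-152086856 (Fgf15). The receptors lie at chr8:26629244-26686186 (Fgfr1), chr7:137305965-137410322 (Fgfr2) and chr5:34064373-34079717 (Fgfr3). Spry1 is at chr3:37538872-37543521, Spry2 at chr14:106291164-106296036 and Dusp6 at chr10:98725865-98730123. No other entry of the table overlaps a member. In the GENCODE annotation of that build, exons of Fgf15 and Fgfr1 overlap a lincRNA gene on the opposite strand (Gm17685 and Gm16159). Whether reads were counted by strand is not given in the sources used here, so reads of each pair may not be told apart.

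RefSeq windows before the transcription start (build GRCm38.p6) were at hand for 5 members: Fgfr2, Fgfr3, Spry1, Spry2 and Dusp6. The 250 bases before the start are shown for Fgfr2, the receptor called higher in KO cells at day 7 and day 9, for Fgfr3, the receptor with the largest rise towards day 9, and for Dusp6, the feedback target with the largest rise from mESCs to day 7. Capitals mark matches, on either strand, to AGGAAG and CCGGAA (cores bound by ETS factors, several of which act below ERK), GGGCGG (bound by Sp1) and TATAAA, with overlapping matches counted apart.
Fgfr2, chr7:130266809-130267058, minus strand: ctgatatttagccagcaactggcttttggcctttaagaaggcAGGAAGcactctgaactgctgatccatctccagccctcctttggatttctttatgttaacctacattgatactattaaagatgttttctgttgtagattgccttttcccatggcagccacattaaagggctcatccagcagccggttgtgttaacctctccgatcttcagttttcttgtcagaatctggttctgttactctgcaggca
Fgfr3, chr5:33721474-33721723, plus strand, the first of 2 starts: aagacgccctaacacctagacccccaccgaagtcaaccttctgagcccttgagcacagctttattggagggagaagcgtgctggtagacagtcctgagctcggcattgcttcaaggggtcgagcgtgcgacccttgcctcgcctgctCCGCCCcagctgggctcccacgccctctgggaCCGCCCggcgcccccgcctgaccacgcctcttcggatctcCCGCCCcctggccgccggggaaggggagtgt
Dusp6, chr10:99262981-99263230, plus strand: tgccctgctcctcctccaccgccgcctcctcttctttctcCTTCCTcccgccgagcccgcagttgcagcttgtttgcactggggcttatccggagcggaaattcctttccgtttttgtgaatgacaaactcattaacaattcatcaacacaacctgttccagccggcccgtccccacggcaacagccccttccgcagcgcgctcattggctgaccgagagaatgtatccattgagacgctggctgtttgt
The Fgfr2 window held 1 AGGAAG, which begins 208 bases before the start, and the Dusp6 window held 1 on the other strand, 210 bases before it. The Fgfr3 window held 3 copies of GGGCGG, all on the other strand, the nearest 31 bases before the start. None of the 3 windows held CCGGAA or TATAAA. Of all 32851 RefSeq windows of that length, 29.5% held AGGAAG, 12% CCGGAA, 32.7% GGGCGG and 12.4% TATAAA. GC content was 44% for Fgfr2, 66.8% for Fgfr3 and 56.4% for Dusp6 (median of all windows 52.4%), and the windows held 2, 19 and 16 CpG dinucleotides (median 6). These matches are a description of the letters only, since binding was not measured here.

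Smchd1, the gene targeted in the KO line, was between 13.0 and 26.4 FPKM in the 12 WT libraries and between 1.82 and 4.40 in the 12 KO libraries, so no library went against its genotype label. Relative read numbers, worked out from the steps between low values, ran from 0.811 to 1.15 with the median library at 1, and read totals were not used here. Pluripotency markers were summed over Pou5f1, Nanog, Zfp42 and Esrrb, and were at 264 to 412 FPKM at day 7 and at most 6.48 FPKM in NSCs. The NSC markers Nes, Fabp7, Olig2 and Vim were all called higher in NSCs than in mESCs (4 of 4 in both genotypes). Of all tested genes 36.9% were called higher for this step in WT and 37.7% in KO. Sox1 and Pax6 were called higher at day 7 than in mESCs (2 of 2 in both genotypes), against 29.1% of all tested genes in WT and 29.5% in KO. The second mESC library of each genotype stood apart in these genes: 7 of the 10 members had their highest mESC value in replicate 2 of WT and of KO alike (70%), against 19% of all 12105 tested genes. All comparisons with mESCs were therefore also fitted without these 2 libraries. They kept the same number of called members except NSCs against mESCs in KO, where Fgf15 was no longer called and 8 members remained.

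Summed by role, the ligands had the largest fold range of the 3 roles, with group means from 0.345 to 129 FPKM. Fgf8 was 2.39, 1.90 and 0.791 FPKM in WT mESCs, 38.6, 35.2 and 17.9 at WT day 7, 1.06, 3.74 and 2.01 at WT day 9 and 0.236, 0.222 and 0.219 in WT NSCs. Every WT day 7 library was above every other WT library. In KO cells Fgf8 was 0.537, 1.23 and 0 FPKM in mESCs, then 10.4, 14.7 and 14 FPKM at day 7, 6.94, 4.80 and 4.40 FPKM at day 9, and 0.260, 0.698 and 1.56 in NSCs. Day 7 was again the highest stage, with a lower mean than WT at day 7 and a higher mean than WT at day 9. Neither difference between KO and WT was called by limma (adjusted p = 0.077 at day 7 and 0.0801 at day 9). Ordered by mean, the 8 groups ran WT day 7, KO day 7 and KO day 9, none overlapping the next, and from WT day 9 down the remaining groups each overlapped their neighbour.

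Fgf15, the mouse counterpart of human FGF19, was near 0 outside the differentiating cells. It was 0.718, 1.79 and 0.397 FPKM in WT mESCs and 97.2, 80.3 and 67.6 at WT day 7, which was 84.5-fold higher in the mean, or 147-fold without the second mESC library. At WT day 9 it was 11.3, 9.94 and 9.34 FPKM. In KO cells it was 0.539, 0.768 and 0.147 FPKM in mESCs, 119, 95.6 and 128 at day 7 and 43.1, 22.4 and 31.7 at day 9. The WT and KO libraries overlapped at day 7, and at day 9 every KO library was above every WT library. Over all tested genes, WT and KO libraries did not overlap for 24% at day 7 and 32.3% at day 9. In NSCs Fgf15 was listed at 0 in all 3 KO libraries and reached at most 0.118 FPKM in WT.

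Fgf17, a close relative of Fgf8, did not peak at day 7. It was highest in mESCs, with 4.78, 17.9 and 7.00 FPKM in WT and 5.09, 9.83 and 3.33 in KO, and the second library was the highest in both. At day 7 it was 2.01, 2.46 and 1.01 FPKM in WT and 1.90, 1.68 and 1.68 in KO. At day 9 the WT libraries were at 0.115, 0 and 0.120 FPKM and the KO libraries at 0.967, 0.710 and 1.05, without overlap but close to 1 FPKM or below. NSCs had at most 0.128 FPKM in WT and between 0.141 and 0.482 in KO. Over the 24 libraries the log2 values of Fgf8 and Fgf15 had a Pearson r of 0.916 and those of Fgf8 and Fgf17 of 0.091, a description over libraries that share their stages.

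**Figure D1:**
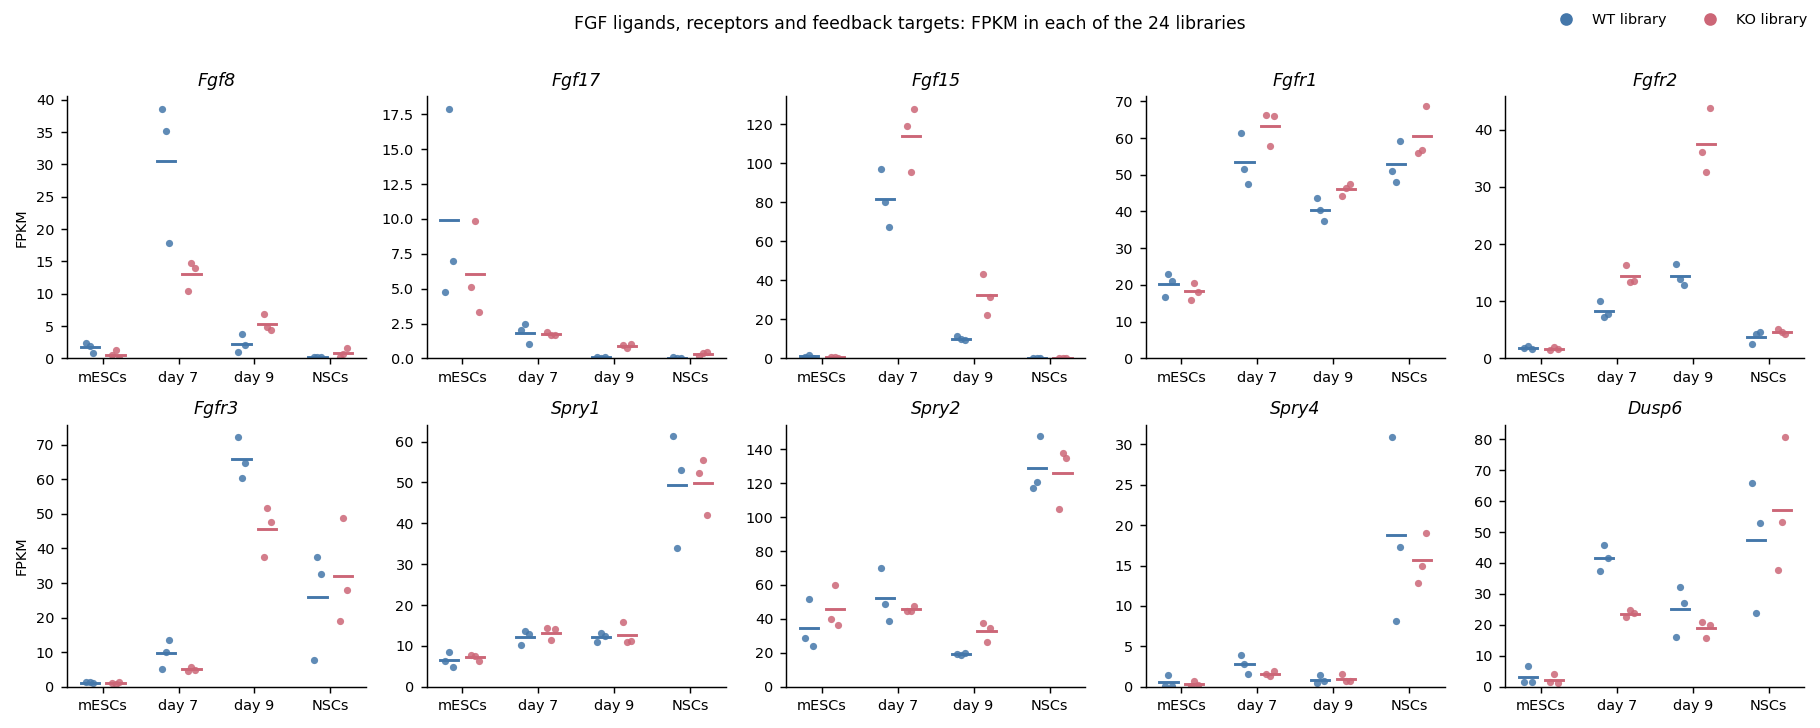
FPKM (linear axis, 1 panel per gene with its own scale) of the 10 members in each of the 24 libraries by stage, WT in blue and KO in red, with a line at the mean of 3 libraries. Fgf8 and Fgf15 peak at day 7, Fgf17 is highest in mESCs, Fgfr2 and Fgfr3 are highest at day 9, and the 4 feedback targets have their highest means in NSCs.

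Fgfr1, the main FGF receptor of pluripotent cells, was the most even member. It was 16.8, 23.1 and 21.0 FPKM in WT mESCs, 61.4, 51.6 and 47.5 at WT day 7, 43.6, 40.4 and 37.5 at WT day 9 and 51.1, 48.1 and 59.3 in WT NSCs. In KO it was 16.0, 20.5 and 18.2 FPKM in mESCs, then 66.2, 57.7 and 65.9 FPKM at day 7, 44.3, 46.5 and 47.6 FPKM at day 9, and 56.0, 56.8 and 68.7 FPKM in NSCs. All differentiated libraries were above all mESC libraries, and the genotypes overlapped at each stage but day 9.

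Fgfr2 was low in mESCs, at 1.90, 2.17 and 1.61 FPKM in WT and 1.43, 1.95 and 1.56 in KO. At day 7 it was 10.0, 7.24 and 7.73 FPKM in WT and 16.4, 13.3 and 13.6 in KO. At day 9 it was 16.5, 13.8 and 12.8 FPKM in WT and 36.0, 32.6 and 43.7 in KO. KO libraries were above WT libraries at both days without overlap, and the KO day 7 level overlapped the WT day 9 level. In NSCs it was 2.51, 4.18 and 4.61 FPKM in WT and 5.09, 4.66 and 4.28 in KO. The values are per gene, and the splice forms of the ligand-binding domain, which set ligand choice, are not separated in them.

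Fgfr3 was also low in mESCs, at 1.41, 1.32 and 0.960 FPKM in WT and 1.02, 0.930 and 1.27 in KO. At WT day 7 it was 5.27, 10.1 and 13.5 FPKM, and at KO day 7 4.70, 5.66 and 4.91. It was highest at day 9, with 72.2, 60.3 and 64.8 FPKM in WT and 37.4, 51.7 and 47.5 in KO, so that KO was below WT in every library. NSC libraries were uneven, at 7.61, 37.5 and 32.5 FPKM in WT and 19.0, 48.7 and 28.1 in KO, with the first library lowest in both genotypes.

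Adding the 3 receptors gave 23.4 ± 3.25 FPKM (SD, n = 3) in WT mESCs and 21.0 ± 2.48 in KO mESCs, and 121 ± 10.1 at WT day 9 and 129 ± 10.7 at KO day 9. At day 9 the sums of WT and KO differed by less than their SD, while the shares of Fgfr2 and Fgfr3 did not overlap. Fgfr1 made up 86.5% ± 2.77 of it in WT mESCs and 33.6% ± 1.46 at WT day 9. Fgfr3 made up 54.5% ± 1.83 at WT day 9 and 35.2% ± 3.96 at KO day 9. Fgfr2 made up 11.9% ± 0.714 at WT day 9 and 29% ± 3.55 at KO day 9. In NSCs Fgfr2 made up 4.51% ± 0.363 in WT and 4.94% ± 1.22 in KO. These shares are of FPKM, and were not tested.

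**Figure D2:**
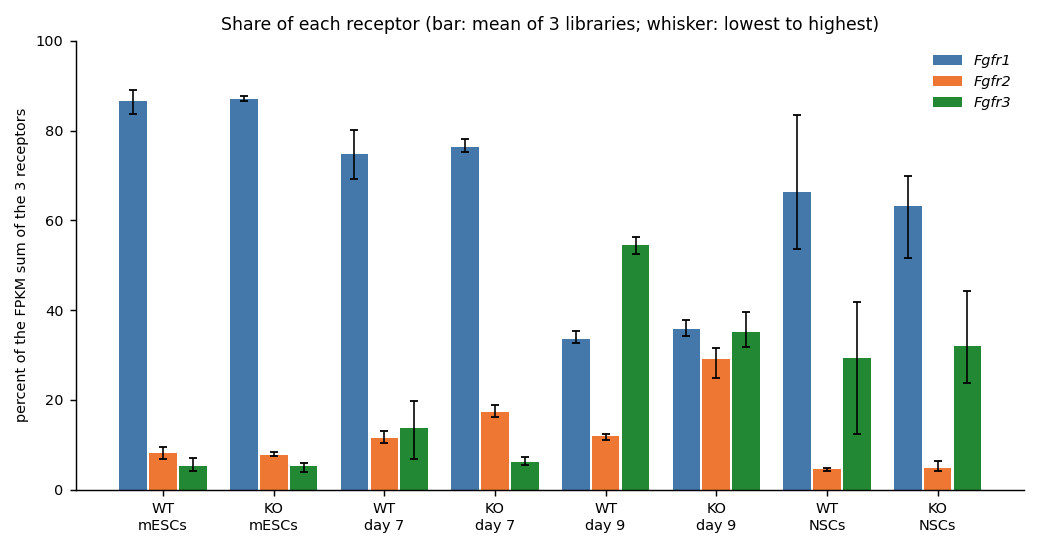
Share of each receptor in the summed FPKM of Fgfr1, Fgfr2 and Fgfr3 (percent, linear axis from 0) for the 8 groups. Bars are means of 3 libraries and whiskers run from the lowest to the highest library. At day 9 Fgfr2 is at 24.9% to 31.5% in KO and 11.1% to 12.5% in WT.

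The feedback targets did not share 1 course. Dusp6 was 1.55, 6.63 and 1.39 FPKM in WT mESCs, 37.3, 45.8 and 41.6 at WT day 7, 16.1, 32.4 and 27 at WT day 9 and 65.7, 24 and 52.9 in WT NSCs. In KO cells it was 1.58, 4.2 and 1.09 FPKM in mESCs, then 22.4, 24.8 and 23.7 FPKM at day 7, 20.9, 15.7 and 20.1 FPKM at day 9, and 37.6, 53.2 and 80.7 in NSCs. At day 7 each KO library was below each WT library, and at the other stages the genotypes overlapped.

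Spry2 was well expressed in mESCs, at 28.5, 52.0 and 24 FPKM in WT and 40.2, 60 and 36.7 in KO. At day 7 it was 69.9, 48.5 and 39.0 FPKM in WT and 44.9, 44.6 and 47.5 in KO. At day 9 it was 19.4, 18.9 and 20.1 FPKM in WT and 37.3, 26.3 and 34.6 in KO, without overlap. It was highest in NSCs, with 117, 121 and 148 FPKM in WT and 105, 138 and 135 in KO, where it was also the most abundant member.

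Spry4 had the lowest mean of the feedback targets in each group. It was 0.0875, 1.40 and 0.0967 FPKM in WT mESCs and 0.0985, 0.656 and 0.268 in KO mESCs, so the second library held most of the signal. At day 7 it was 3.88, 2.82 and 1.61 FPKM in WT and 1.55, 1.37 and 1.94 in KO, and at day 9 it ranged from 0.468 to 1.48 in WT and 0.708 to 1.55 in KO. NSCs had 30.9, 8.10 and 17.3 FPKM in WT and 12.9, 15.0 and 19.0 in KO, 35.5-fold and 45.8-fold higher than mESCs in the mean, or 204-fold and 85.1-fold without the second mESC library.

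Spry1 was between 4.92 and 8.59 FPKM in the 6 mESC libraries, between 10.2 and 15.8 in the 12 day 7 and day 9 libraries, and between 33.9 and 61.3 in the 6 NSC libraries. The genotypes overlapped at each stage. Spry1 and Spry4 had a Pearson r of 0.953 on log2 values over the 24 libraries, Spry2 and Spry4 of 0.880, and Spry2 and Dusp6 of 0.484. Summed, the 4 targets were at 45.2 ± 20.6 FPKM (SD, n = 3) in WT mESCs and 55.5 ± 14.8 in KO mESCs, and at 245 ± 49.9 in WT NSCs and 249 ± 36.0 in KO NSCs.

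The change from mESCs to day 7 was tested first. Differences, rises and falls below are on the log2(FPKM + 1) scale, which understates the change of genes near 0. Values given as folds are ratios of mean FPKM. An adjusted p under 0.05 counted as a call. In WT all 10 members were called, 9 higher at day 7 and Fgf17 lower. Over all tested genes 29.1% were called higher and 30.2% lower, and the median difference was 1.52 over the members and -0.02 over all genes. Scaling the libraries to the same sum of FPKM moved the median of all genes by 0.19 and the higher share of the called genes from 49.1% to 66.3%. The largest rises were those of Fgf15 (5.44, SE 0.23, adjusted p = 1.6e-14), Dusp6 (3.56, SE 0.43, adjusted p = 1.08e-06) and Fgf8 (3.53, SE 0.34, adjusted p = 1.27e-08). Fgfr3 rose by 2.18, Fgfr2 by 1.68, Fgfr1 and Spry4 by 1.36 each, Spry1 by 0.81 and Spry2 by 0.62, while Fgf17 fell by 1.80. Spry2 (adjusted p = 0.0274) lost the call without WT mESC replicate 1 or 3 or WT day 7 replicate 1, with adjusted p-values up to 0.176.

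In KO cells 9 of the 10 members were called for the same step, 8 higher and Fgf17 lower, against 29.5% and 31.8% of all genes. The higher share of all called genes was 48.1%, or 63.3% after scaling. Fgf15 rose by 6.29 (SE 0.23, adjusted p = 1.49e-15), Fgf8 by 3.21, Dusp6 by 3.02, Fgfr2 by 2.54, Fgfr1 by 1.74 and Fgfr3 by 1.56. Spry4 rose by 0.98 (adjusted p = 0.0228), a call lost without KO mESC replicate 1 or 3 or KO day 7 replicate 3. Spry2 differed by 0.03 (SE 0.23, adjusted p = 0.915). The WT and KO steps themselves were compared as a difference of the KO effect between day 7 and mESCs, and no member passed that test, against 1.68% of all genes in either direction. At an unadjusted p under 0.05 it was 3 of the 10 members and 9.84% of all genes. The nearest was Fgfr2, with a difference of 0.86 (SE 0.23, adjusted p = 0.0655), called without WT day 7 replicate 1.

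From day 7 to day 9 the members moved in both directions. In WT 8 were called, Fgfr2 and Fgfr3 higher and 6 lower, against 18.5% of all genes called higher and 15.3% lower. The higher share of all called genes was 54.6%, or 72.2% after scaling, which moved the median of all genes by 0.12. Fgfr3 rose by 2.73 (SE 0.41, adjusted p = 4.41e-05) and Fgfr2 by 0.72 (SE 0.16, adjusted p = 0.00177). Fgf8 fell by 3.28, Fgf15 by 2.87, Fgf17 by 1.35, Spry2 by 1.35, Spry4 by 0.98 and Fgfr1 by 0.39. The calls of Spry4 (adjusted p = 0.0403) and Fgfr1 (adjusted p = 0.0201) did not survive scaling, that of Spry4 was also lost with a pseudocount of 0.1, without the filter and with the replicate block, and the leave-one-out fits kept them in 2 and 3 of 6. Dusp6 (difference -0.75, SE 0.43, adjusted p = 0.192) and Spry1 (0.01, SE 0.19, adjusted p = 0.988) were not called.

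In KO 5 members were called between day 7 and day 9, against 17.2% of all genes called higher and 13.4% lower. Fgfr3 rose by 2.92 and Fgfr2 by 1.31 (SE 0.16, adjusted p = 3.67e-06), while Fgf15 fell by 1.82, Fgf8 by 1.14 and Fgfr1 by 0.44. The Fgf8 call (adjusted p = 0.0139) was lost without KO day 7 replicate 2 or KO day 9 replicate 3 and with a pseudocount of 0.1, and the Fgfr1 call after scaling. Spry2 differed by -0.48 (SE 0.23, adjusted p = 0.121) and Fgf17 by -0.53 (SE 0.32, adjusted p = 0.221).

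In NSCs, compared with mESCs, all 3 receptors and all 4 feedback targets were called higher in both genotypes. All 3 ligands were called lower in WT, and Fgf17 and Fgf15 in KO. Fgf8 was not called in KO, with means of 0.838 FPKM in NSCs and 0.588 in mESCs (log2 difference 0.23, SE 0.34, adjusted p = 0.557). That is 10 members called in WT and 9 in KO. Of all genes 36.9% were called higher and 38.3% lower in WT, and 37.7% and 38.2% in KO. Scaling moved the higher share of the called genes from 49.1% to 66.2% in WT and from 49.7% to 68.3% in KO, with median shifts of 0.37 and 0.43. The rises in WT were 3.64 for Dusp6 (SE 0.43, adjusted p = 3.69e-07), 3.62 for Spry4, 3.33 for Fgfr3, 2.72 for Spry1, 1.93 for Spry2, 1.34 for Fgfr1 and 0.70 for Fgfr2. In KO they were 4.19 for Dusp6, 3.89 for Fgfr3, 3.64 for Spry4, 2.63 for Spry1, 1.68 for Fgfr1, 1.47 for Spry2 and 1.10 for Fgfr2. Fgf17 fell by 3.20 in WT and 2.31 in KO. Fgf15, under 2 FPKM in both kinds of cell, fell by 0.81 in WT. In KO NSCs it was listed at 0 throughout, so no size is given, and the call (adjusted p = 0.033) was kept in 1 of 6 leave-one-out fits. No member passed the test of the difference of the KO effect between NSCs and mESCs, against 2.26% of all genes. At an unadjusted p under 0.05 it was 1 member and 14% of all genes. The higher share among the genes called there was 50.4%, or 61.7% after scaling.

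The comparison of KO with WT at each stage asked whether loss of SmcHD1 went with another level of these genes. In mESCs no member was called by limma (1 had an unadjusted p under 0.05, against 7.66% of all genes), and without the second library of each genotype none was called either. Over all genes 0.116% were called higher and 0.413% lower. The KO minus WT differences lay between -0.79 (Fgf8, SE 0.34) and 0.43 (Spry2, SE 0.23). For Fgfr1 the 95% interval of the difference was -0.40 to 0.12, and for Dusp6 -1.15 to 0.67.

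At day 7 Fgfr2 alone was called, against 1.18% of all genes called higher and 2.5% lower. At an unadjusted p under 0.05 it was 3 of the 10 members and 13.9% of all genes. Fgfr2 was 1.73-fold higher in KO (difference 0.73, SE 0.16, adjusted p = 0.0104), and KO was above WT in all libraries. The call was lost without WT day 7 replicate 2 or 3 or KO day 7 replicate 1, with adjusted p-values up to 0.0802. Fgf8 was 2.34-fold lower in KO without overlap (-1.11, SE 0.34, adjusted p = 0.077), and was called only without WT day 7 replicate 3, the lowest WT library. Dusp6 was 1.76-fold lower without overlap (-0.79, SE 0.43, adjusted p = 0.471). It was called in a fit of the 6 day 7 libraries alone (adjusted p = 0.00384), in which the spread of the other stages does not enter. Fgf15 (0.48, SE 0.23, adjusted p = 0.34) and Fgfr3 (-0.72, SE 0.41, adjusted p = 0.492) were not called.

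At day 9 Fgf15 and Fgfr2 were called higher in KO, against 2.58% of all genes called higher and 4.11% lower. At an unadjusted p under 0.05 it was 5 of the 10 members and 17.3% of all genes. Fgf15 was 3.18-fold higher (1.53, SE 0.23, adjusted p = 9.47e-05) and Fgfr2 2.61-fold higher (1.32, SE 0.16, adjusted p = 1.33e-05). Both calls held in each alternative fit, with adjusted p-values up to 0.0303 and 0.000818. Spry2 was 1.68-fold higher (0.71, SE 0.23, adjusted p = 0.0781), Fgf8 2.37-fold higher (1.03, SE 0.34, adjusted p = 0.0801) and Fgf17, at most 0.120 FPKM in WT, also higher (0.82, SE 0.32, adjusted p = 0.155), and none of these was called. Fgf8 was called without WT day 9 replicate 2 (adjusted p = 0.0381), Spry2 in a fit of the 6 day 9 libraries alone (adjusted p = 0.00731), and Fgf17 in that fit and with a pseudocount of 0.1 (adjusted p = 0.00313). Under the replicate block Spry2 (adjusted p = 0.00738) and Fgf17 (adjusted p = 0.0201) were called as well, although at this stage the numbers did not pair the libraries. Fgfr3 was 1.45-fold lower without overlap (-0.53, SE 0.41, adjusted p = 0.601), and called only in a fit of the 6 day 9 libraries alone (adjusted p = 0.0253). The higher share of all genes called at day 9 was 38.6%, or 22.7% after scaling.

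In NSCs no member was called by limma (0 with an unadjusted p under 0.05, against 18.1% of all genes), against 2.54% of all genes called higher and 3.48% lower. The higher share of all called genes was 42.2%, or 54.4% after scaling. Differences ran from -0.10 (Fgf15) to 0.52 (Fgf8, SE 0.34, adjusted p = 0.472). The 95% interval was -0.07 to 0.45 for Fgfr1 and -0.06 to 0.62 for Fgfr2. For Spry4 and Dusp6 it spanned -0.84 to 0.66 and -0.60 to 1.22. Spry4 was uneven in WT NSCs and Dusp6 in NSCs of both genotypes, while the intervals use the spread of all 24 libraries. The exact permutation test (two-sided, 3 libraries a side) cannot go below p = 0.1, and 12 of the 40 member and stage pairs reached that value, against 21% of the pairs of all tested genes. At day 9 it was 7 of the 10 members against 32.3% of all genes, at day 7 3 against 24%, in NSCs 2 against 16.7% and in mESCs 0 against 11%.

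**Figure D3:**
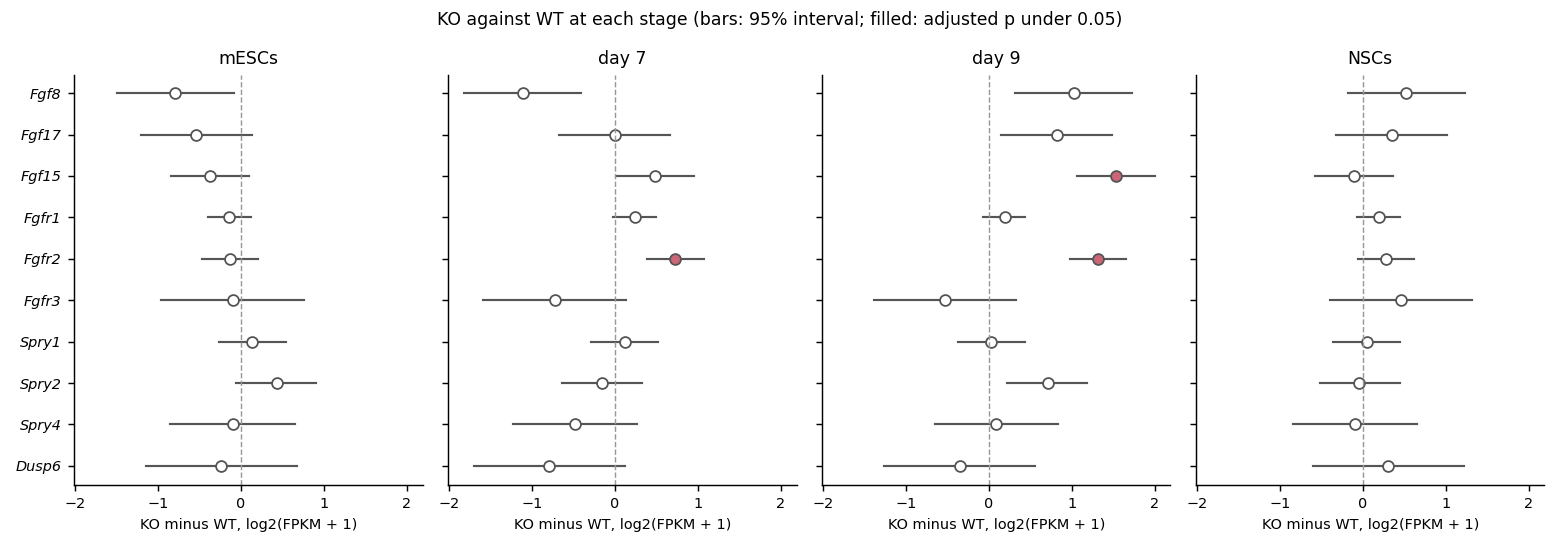
KO minus WT difference on the log2(FPKM + 1) scale for each member at each stage, with 95% intervals from the fit of all 24 libraries. Filled points passed an adjusted p of 0.05, which are Fgfr2 at day 7 and Fgf15 and Fgfr2 at day 9, and intervals are widest for Dusp6 and Fgfr3.

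Fgf8 was the only member whose KO effect differed between day 7 and day 9 in the test of that difference. The KO minus WT difference was -1.11 at day 7 and 1.03 at day 9, and the change between them was 2.14 (SE 0.48, 95% interval 1.14 to 3.13, adjusted p = 0.018). Of all genes 1.83% passed this test, and at an unadjusted p under 0.05 it was 4 of the 10 members and 8.6% of all genes. The call was lost with a pseudocount of 0.1 and in 4 of 12 leave-one-out fits (without WT day 7 replicate 1 or 2, KO day 7 replicate 1 or KO day 9 replicate 1), with adjusted p-values up to 0.442. With the replicate block, Fgf8 was joined by Fgf15 (1.05, adjusted p = 0.028) and Spry2 (0.86, adjusted p = 0.0439). Without the block these had adjusted p-values of 0.12 and 0.314.

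Markers of other cell types moved with genotype at the same days. In bulk RNA, fewer cells of a type and less RNA per cell cannot be told apart. Of 4 mesoderm and primitive streak markers, 2 were tested and both were called lower in KO at day 7 and day 9. The sum of the 4 was 58.3 to 155 FPKM at WT day 7 and 1.87 to 3.43 at KO day 7, and 15.1 to 42.8 and 4.12 to 15.0 at day 9, where Mixl1 was listed at 0 in all 3 WT libraries. T, the gene for Brachyury, was at 103 FPKM in WT and 1.59 in KO at day 7. The sum of 4 endoderm markers was 20.1 to 51.1 FPKM at WT day 7 and 0.496 to 1.47 at KO day 7, and 2 of the 2 tested were called lower. At day 9 this sum was 27.2 to 50 FPKM in WT and 2.68 to 11.6 in KO, with 1 of 2 called lower. Most of the WT sum was 1 gene, Foxa2, with a mean of 29.6 FPKM at day 7 and 36.9 at day 9. Of 5 midbrain-hindbrain markers 4 were tested and 3 were called higher in KO at day 7 and 2 at day 9. Their sum was 2.67 to 6.10 FPKM in WT and 14.8 to 51.3 in KO at day 7, and 4.25 to 9.55 and 15.9 to 31.4 at day 9. Most of the KO sum at day 9 was Wnt1, expressed next to Fgf8 at that boundary, with 1.45 FPKM in WT and 16.2 in KO. En2 was at 0.59 and 3.93 FPKM, while En1 (1.33 and 1.5) and Pax2 (2.65 and 2.43) were not called and Pax5 (0.689 and 0.483) was not tested. Of 4 forebrain markers the 3 tested were called higher at both days (Six3, at 1.11 FPKM in WT and 0.457 in KO at day 7, was not tested), with sums of 6.62 to 13.5 FPKM in WT and 27.1 to 38.3 in KO at day 7. The neurectoderm sum (Sox1 and Pax6) was 47.9 to 61.2 FPKM in WT and 81.8 to 94.3 in KO at day 7, with 1 of 2 called higher. At day 9 it was 50.9 to 87.6 FPKM in WT and 97.2 to 117 in KO, with 2 of 2 called higher. Of the NSC markers 2 of 4 were called lower in KO at day 7 (Olig2 and Vim) and 1 at day 9 (Olig2), and none higher. Their sum was 263 to 334 FPKM in WT and 167 to 264 in KO at day 7, and 1240 to 1530 and 1480 to 1700 at day 9, where Fabp7 was at 363 FPKM in WT and 538 in KO (adjusted p = 0.209). The part of these cell types in the levels of Fgf8, Fgf15, Fgf17, Fgfr2, Spry2 or Dusp6 was not tested.

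The mESC libraries differed within each genotype in these genes. In both, replicate 2 was the highest for Fgf17, Fgf15, Fgfr1, Fgfr2, Spry2, Spry4 and Dusp6. Dusp6 in replicate 2 was 6.63 FPKM in WT and 4.2 in KO, against 1.09 to 1.58 in the other 4 libraries. The same held for 8 of 14 other tested ERK-pathway targets (57.1%), 5 of 17 tested relay genes (29.4%) and 3 of 6 other ligands (50%), against 19% of all genes. Among those 8 were Egr1 and Fos, immediate early genes of the ERK pathway picked here after their values were seen. Egr1 was 14.3, 76.5 and 0.0739 FPKM in WT and 14.9, 43.4 and 0.246 in KO, and Fos was 21.3, 26.5 and 0.337 in WT and 21.4, 24.5 and 0.249 in KO. The third library was thus near 0 for both genes in both genotypes. Deviations from the group means of same-numbered WT and KO mESC libraries had correlations of 0.289, 0.435 and 0.141 over all genes. What the same-numbered libraries shared is not given in the sources used here.

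**Figure D4:**
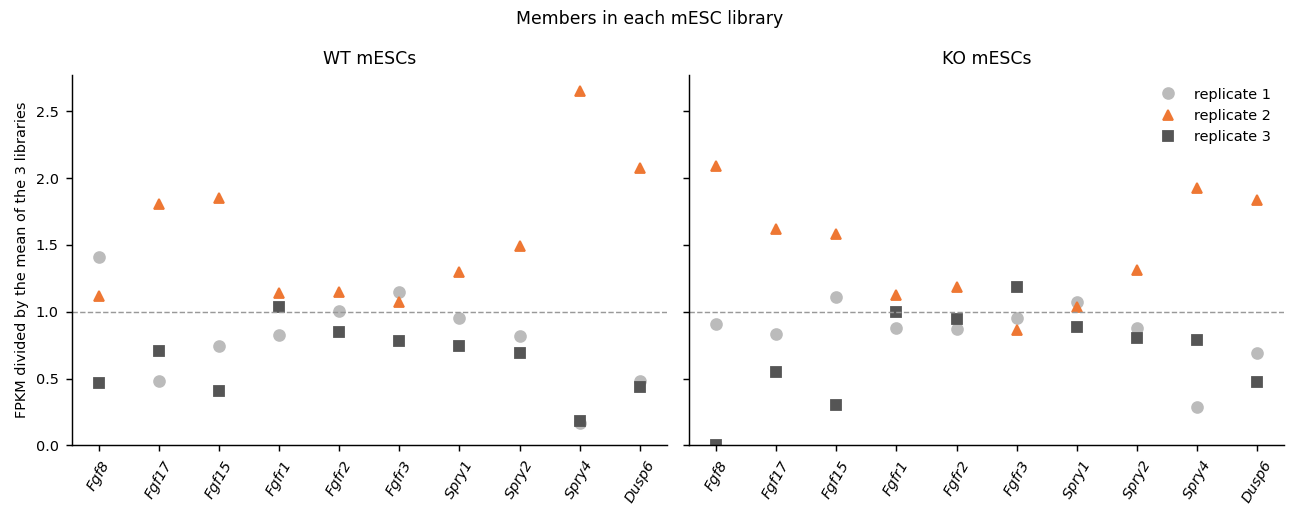
FPKM of each member in each mESC library divided by the mean of the 3 libraries of its genotype (linear axis, dashed line at 1), WT left and KO right, with a symbol for each replicate number. Replicate 2 (triangles) is the highest for 7 of the 10 members in both genotypes, and KO replicate 3 is at 0 for Fgf8.

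The rest of the pathway was read from 4 lists. Of 14 other FGF ligands 6 were tested, and 1 was called in KO against WT: Fgf5, a gene of the epiblast, lower at day 7, as 2.5% of all genes were (4.98 FPKM in KO and 9.29 in WT, difference -0.75, SE 0.20, adjusted p = 0.0317), a call kept in 2 of 6 leave-one-out fits and lost with a pseudocount of 0.1 and in a fit of the day 7 libraries alone. Fgf5 was listed at 0 in all mESC libraries. Over the 24 libraries it was the gene most like Fgf8 (Pearson r 0.942 on log2 values). In WT 2 of these ligands were called higher and 1 lower at day 7 than in mESCs (29.1% and 30.2% of all genes), and 1 higher and 4 lower at day 9 than at day 7 (18.5% and 15.3%).

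Of 11 other receptors, co-receptors and enzymes of heparan sulphate, 8 were tested, and at day 9 3 were called lower in KO and 0 higher, against 4.11% and 2.58% of all genes. Sulf1 and Sulf2 encode the extracellular enzymes that remove sulphate groups from heparan sulphate, and Hs2st1 encodes an enzyme that adds them. Sulf1 was 42.4, 61.9 and 60.6 FPKM at WT day 9 and 12.1, 18.5 and 8.94 at KO day 9 (-2.02, SE 0.21, adjusted p = 1.18e-06). Sulf2, named like Hs2st1 at day 9 after its values were seen, was 78.8, 109 and 101 FPKM in WT and 30.5, 41.1 and 30.9 in KO (-1.46, SE 0.16, adjusted p = 3.15e-06). For both the KO effect was larger at day 9 than at day 7 (-1.44, SE 0.30, adjusted p = 0.00934 for Sulf1, and -1.53, SE 0.23, adjusted p = 0.000463 for Sulf2). Hs2st1 was 15.7, 18.0 and 18.0 FPKM in WT and 8.80, 9.87 and 9.32 in KO (-0.82, SE 0.11, adjusted p = 3.08e-05). It was also lower at day 7 (-0.84, adjusted p = 4.29e-05), where Hs6st1, another sulphotransferase gene, was higher (0.52, SE 0.12, adjusted p = 0.0127). The Hs6st1 call was kept in 3 of 6 leave-one-out fits, and lost after scaling and in a fit of the day 7 libraries alone. In NSCs Sulf2 was higher in KO, at 102, 119 and 113 FPKM against 87.9, 47.1 and 68.3 in WT (0.75, SE 0.16, adjusted p = 0.00691), a call lost in a fit of the NSC libraries alone (adjusted p = 0.248).

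Of 18 genes of the adaptors and the Ras-ERK relay 17 were tested, and the KO against WT comparisons called 1, the adaptor gene Grb2, lower in KO NSCs, against 3.48% of all genes called lower there. It was 54.8, 57.8 and 57.1 FPKM in WT and 44.6, 40.3 and 41.7 in KO (-0.42, SE 0.08, adjusted p = 0.00157), a call lost in a fit of the NSC libraries alone (adjusted p = 0.144). From mESCs to day 7 5 of the 17 were called higher and 4 lower in WT, against 29.1% and 30.2% of all genes.

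Of 15 other ERK-pathway targets 14 were tested, and in WT 8 were called higher and 1 lower at day 7 than in mESCs (29.1% and 30.2% of all genes), and 8 higher and 4 lower in NSCs (36.9% and 38.3%). In KO the counts were 6 and 1 (29.5% and 31.8%), and 10 and 2 (37.7% and 38.2%). Etv4, an ETS factor gene, was the gene most like Spry2 over the 24 libraries (Pearson r 0.943). It was 5.01, 7.22 and 6.91 FPKM at WT day 7 and 3.18, 3.60 and 3.21 at KO day 7, and 0.723, 1.48 and 0.837 at WT day 9 and 3.36, 2.22 and 2.19 at KO day 9. It was thus below WT at day 7 and above it at day 9 in every library, as Fgf8 was. Etv4 was called at day 9 (0.84, SE 0.25, adjusted p = 0.0458). That call was kept in 1 of 6 leave-one-out fits, and lost after scaling, without the filter and with eBayes without trend and robust settings. The change of its KO effect between the days was 1.59 (SE 0.35, adjusted p = 0.0167), a call lost without WT day 7 replicate 2 or KO day 9 replicate 1. Dusp5, another ERK phosphatase gene, was 0.997, 2.25 and 2.04 FPKM in WT NSCs and 6.59, 3.14 and 3.95 in KO NSCs (0.99, SE 0.28, adjusted p = 0.0391). That call was lost with the replicate block (adjusted p = 0.0572), without the filter and in a fit of the NSC libraries alone. It was kept in 2 of 6 leave-one-out fits.

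**Figure D5:**
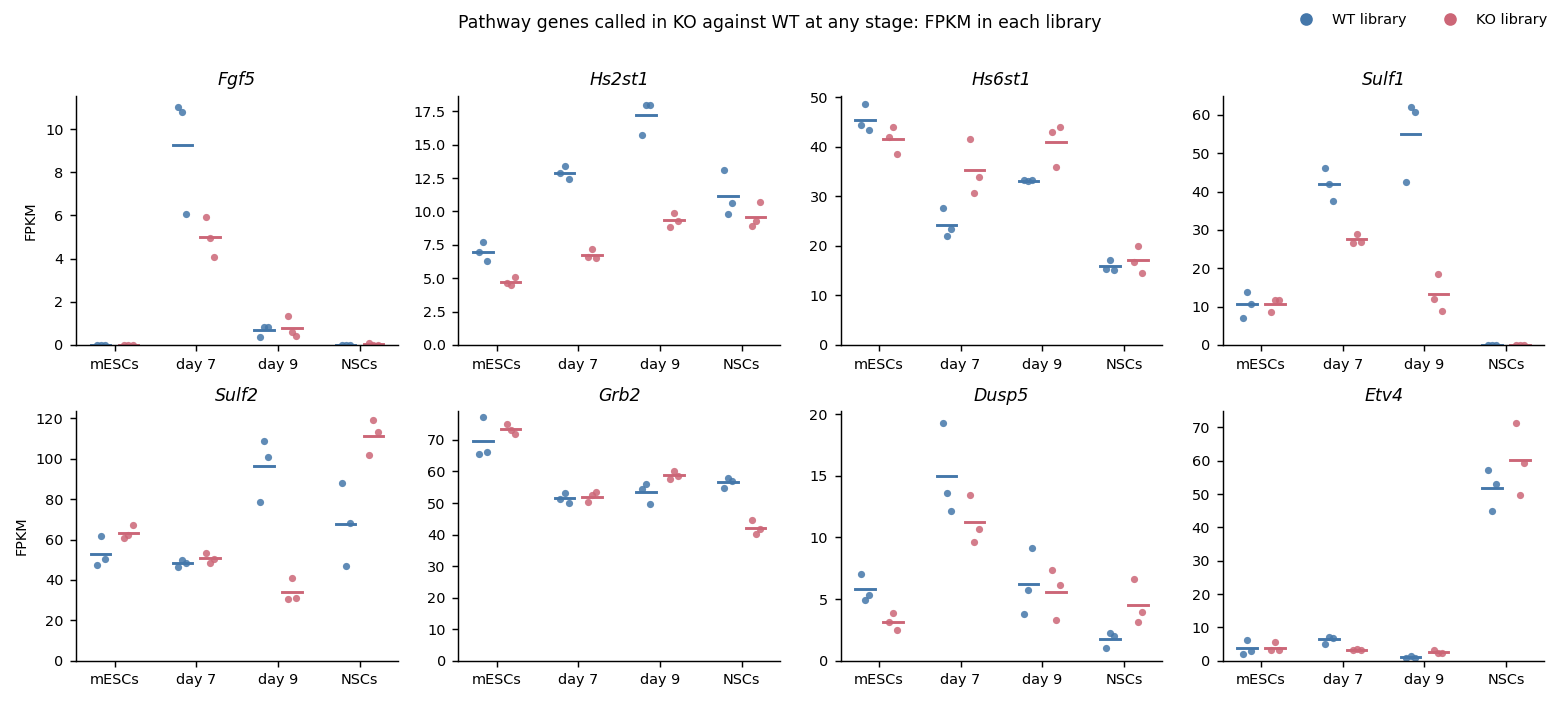
FPKM (linear axis, own scale in each panel) of the 8 genes of the 4 pathway lists that were called in KO against WT at any stage, in each library, WT in blue and KO in red with a line at the mean of 3 libraries. At day 9 the KO libraries are below the WT libraries for Hs2st1, Sulf1 and Sulf2 and above them for Etv4.

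Tested genes with a course similar to each member's were found by Pearson's r of log2 values over the 24 libraries, as a description. Fgf8 was nearest to Fgf5 and Esrp1 (0.923), and Fgf15 to Lrp2 (0.988) and Greb1l (0.981). Fgf17 was close to Trmt11 (0.952) and Ipmk (0.951). Fgfr1 was nearest to Gja1 (0.975), Sall2 (0.963) and Setd7 (0.958), Fgfr2 to Abcd2 (0.964), Lix1 (0.963) and Raver2 (0.962), and Fgfr3 to Kbtbd11 (0.979), Dll3 (0.971) and Ebf4 (0.969). Among the feedback targets, Spry1 was nearest to Plxnb2 (0.974), Sept9 (0.974) and Acap3 (0.973), Spry2 to Etv4, Tmem63a (0.922) and Myc (0.918), Spry4 to Tm9sf1 (0.963), Dock1 (0.960) and Lass2 (0.957), and Dusp6 to Zbed3 (0.950), Dab1 (0.947) and the shared entry of Mir702 and Plod3 (0.937).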

How the data were processed

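Poly(A) RNA libraries were made by the authors with a stranded Illumina kit. Per the labels and the submitters' processing notes the reads were trimmed with Trim Galore 0.6.6, aligned to mm9 with TopHat2 2.1.1 and summarised with Cuffdiff of the Cufflinks suite, with rRNA and X-chromosome reads removed. The deposited values are FPKM per library, scaled by the authors. The library normalization and the use of strand in counting are not given in the sources used here, and read totals were not used. Of 36 FPKM columns, 12 belong to no sample listed here and were not used. Deposited FPKM columns of the 24 libraries were log2-transformed after adding a pseudocount of 1. Of 23119 genes, 1091 on X or Y were 0 throughout, 1 had a failed estimate, and the 12105 with a mean FPKM of at least 1 were tested. FPKM are not counts, so no count model was used. Depth was read from low values: 29913 of 31400 (95.3%) were whole multiples, within 0.05, of the smallest value of their gene after correction for relative depth. That smallest value was taken as 1 read's worth, which was not shown. It makes at least 1 value of each gene whole by construction, so the share is partly set in advance.

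Groups were compared with limma 3.58.1 (R 4.3.3, statmod 1.5.0): 8 groups without intercept, moderation by eBayes (trend, robust), two-sided, Benjamini-Hochberg over the tested genes. The test was tried on simulated data beforehand. Named are all 10 members, of each pathway list the genes with the largest called rise and fall in KO against WT, the 3 genes most like each member (some are not reported here), and Smchd1. Members and lists were chosen with earlier results of these data known. Same-numbered WT and KO libraries deviated together (every correlation above 0.1) in mESCs and NSCs (0.335, 0.184 and 0.240), not at day 7 or day 9. Alternatives were a pseudocount of 0.1, no filter, equal FPKM sums, eBayes without trend and robust settings, each stage alone, a replicate block, each library left out, and, chosen after seeing the data, mESCs without the second libraries.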

Additional observations from a re-analysis of the deposited data

Results flagged for a closer look

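The effect of KO differed between stages, by the limma test of the difference itself, for 4 genes named above between day 7 and day 9 (1.83% of all tested genes passed) and for 2 between mESCs and NSCs (2.26% passed). The 5 that are not members were named for their KO against WT calls. The KO minus WT difference of Fgf8 was 2.14 higher at day 9 than at day 7 on the log2(FPKM + 1) scale (lost with a pseudocount of 0.1, adjusted p = 0.442, and kept in 8 of 12 leave-one-out fits), and that of Etv4 was 1.59 higher (lost without WT day 7 replicate 2 or KO day 9 replicate 1), each lower than WT at day 7 and higher at day 9 in every library. Sulf1 and Sulf2 changed by -1.44 and -1.53 between the same days, and the Sulf1 call was lost with a pseudocount of 0.1 (adjusted p = 0.138). Between mESCs and NSCs the difference moved by -0.49 for Grb2, lost after scaling and without WT mESC replicate 3, and by 1.69 for Dusp5, kept in 6 of 12 leave-one-out fits.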

How the results depend on the processing

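Members and genes called moved by over 1.5 times as follows. Genes called between KO and WT mESCs numbered 64, but 164 without the filter, 42 after scaling, 1 with the stage alone, 98 with the replicate block and 25 without the second libraries, and 20 to 112 with 1 library left out. At day 7 the stage alone called 2 members (from 1), and leaving out a library gave 0 to 1 members and 273 to 521 genes (from 446). At day 9 the 809 genes became 1221 without the filter and 1377 with the stage alone, and 449 to 752 with a library left out. The 2 members became 5 with the stage alone and 4 with the block. In NSCs the 729 genes became 58 with the stage alone, 1145 with the block and 406 (without KO replicate 3) to 1352 (without WT replicate 1) with a library left out. For the KO effect at day 7 against mESCs, 203 genes became 330 with the block and 119 to 253 with a library left out, and members ranged from 0 to 1. At day 9 against day 7, 221 genes became 87 with a pseudocount of 0.1, 411 without the filter and 138 to 253 with a library left out, and the 1 member became 0, 3 with the block, and 0 to 2. For NSCs against mESCs, 274 genes became 504 with the block and 146 to 607. The cause of these moves was not tested. Of 130 member and comparison pairs, 55 were called and none of these turned direction in any fit. In mESCs and NSCs the replicate block changed no member call between KO and WT. Elsewhere it changed 5: it added Fgf17 and Spry2 at day 9 and Fgf15 and Spry2 for the difference between the days, and removed Spry4 for day 9 against day 7 in WT (adjusted p = 0.0501). Scaling, a pseudocount of 0.1 and no filter lost that call too, and scaling lost Fgfr1 for this step in WT and KO, and Fgf15 for NSCs against mESCs in KO. With read totals not used, no detection limit was worked out for genes near 0 FPKM.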
